A study of Mus musculus with 6 samples.

Results

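The BCL2 family is the set of proteins that decides whether a cell permeabilises its mitochondria and dies by apoptosis. The members described here were chosen by name, and all 10 were found among the 19060 genes of the deposited table of filtered counts. They are the effectors Bax and Bak1, the BH3-only genes Bbc3, Pmaip1, Bcl2l11, Bid and Bad, and the anti-apoptotic genes Bcl2, Bcl2l1 and Mcl1, which makes 7 pro-apoptotic and 3 anti-apoptotic members. RNA was sequenced from the proximal end of the mouse incisor, a tooth that grows throughout life from stem cells at that end. The 3 control samples came from Fgfr1fl/fl mice, which the labels call wild type, and the 3 mutant samples from Gli1CreER;Fgfr1fl/fl mice, whose driver the labels write as Gli1-Cre, and they are called controls and mutants here. Both groups carried the floxed Fgfr1 alleles on a mixed background, received tamoxifen at 1 month of age and were sampled 1 week later. After tamoxifen, Cre is active in this line only in cells that express Gli1, whereas the RNA came from all cells of the proximal incisor, and no marker was used to pick out cells that had lost Fgfr1. The labels number the 3 samples of a group, but they do not say that each was a separate animal, so the p-values below measure the spread between these samples, which may in part be technical.

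In living cells the anti-apoptotic proteins hold the effectors BAX and BAK in check at the outer mitochondrial membrane. BH3-only proteins are the stress sensors of the family: some bind and neutralise the anti-apoptotic proteins, and some also activate the effectors directly. Once active, BAX and BAK form pores through which cytochrome c leaves the mitochondrion and starts the caspases. The balance between the groups, more than the level of any single member, is the textbook measure of how close a cell is to this step, and much of that balance is set on the proteins and is not visible in RNA.

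The total counts were between 31060222 and 32712448 in the controls, against between 5276557 and 11819576 in the mutants, and the family took between 0.0286% and 0.0469% of them. Every control library was thus larger than every mutant library, and the labels name no sequencing run. Genotype therefore cannot be told apart from other differences between the 2 sets of libraries. Levels are given as CPM, counts scaled to a common library size with the upper quartile as the reference. A sample with 0 counts may still hold up to 3 counts, or 0.0874 CPM in a control sample but 0.655, 0.256 and 0.302 CPM in mutants 1, 2 and 3, counting error only. Genes with 0 counts made up 30.3, 17.1 and 19.7% of the table in mutants 1, 2 and 3, against 3.83 to 3.96% in the controls. Fgfr1, the deleted gene, had between 434 and 924 CPM in the controls, against between 148 and 318 CPM in the mutants, without overlap (log2 fold change -1.37, edgeR's quasi-likelihood test with Benjamini-Hochberg adjustment, adjusted p = 0.0881). With a correction for the length and GC content of transcripts its log2 fold change was -0.88 (adjusted p = 0.186, edgeR). Among marker lists, the summed level of 7 dental epithelium markers was between 85170 and 120607 CPM in the controls, against between 31394 and 69498 CPM in the mutants. The 4 endothelial markers summed to 132 to 221 CPM and to 111 to 115 CPM. The groups were therefore apart on the sums of these lists, with 6 of 7 and 3 of 4 markers lower in the mutants. None of these markers had an unadjusted p under 0.05 with more than a 1.5-fold difference (edgeR). The dental epithelium sum was mostly Amelx and Ambn, at 50951 and 31373 CPM in control 1, and Epcam had a positive log2 fold change of 0.58. Among the endothelial markers, Kdr and Emcn hardly differed, at log2 fold changes of -0.087 and 0.053. The sums of the odontoblast, dental mesenchyme, macrophage, neutrophil, lymphocyte, erythroid, skeletal muscle, Schwann cell and cycling cell lists overlapped between the groups. None of the 7 dental epithelium and 4 endothelial markers was at 0 in any sample, and Dspp, the defining odontoblast gene, had between 1590 and 7742 CPM. The skeletal muscle sum varied the most, from 4.75 to 3654 CPM, within both groups. In a bulk sample, fewer cells of a type and less RNA per cell cannot be told apart.

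The clearest differences in the family lay among the anti-apoptotic genes, and they went in opposite directions. Bcl2l1 was lower in all 3 mutant samples than in any control sample, by about 2.02-fold, whereas Mcl1 and Bcl2 were higher in all 3 mutant samples, by about 1.54-fold and 1.58-fold. Among the 7 pro-apoptotic members, the groups were apart only for Bak1, which was lower in the mutants. None of the 9 members that could be tested had an adjusted p under 0.05, a call made for 6.79% of the 15826 genes tested (3.72% higher and 3.06% lower). At the threshold of the study, an unadjusted p under 0.05 with more than a 1.5-fold difference, 2 of 9 members were called, Bcl2l1 lower and Mcl1 higher, against 19.8% of all genes tested (10.9% higher and 8.92% lower). For 4 of 9 members all mutants lay on one side of all controls, as they did for 30.4% of all genes tested. By number alone the family was thus close to the background, and what follows is a description of which members differed.

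**Figure D1:**
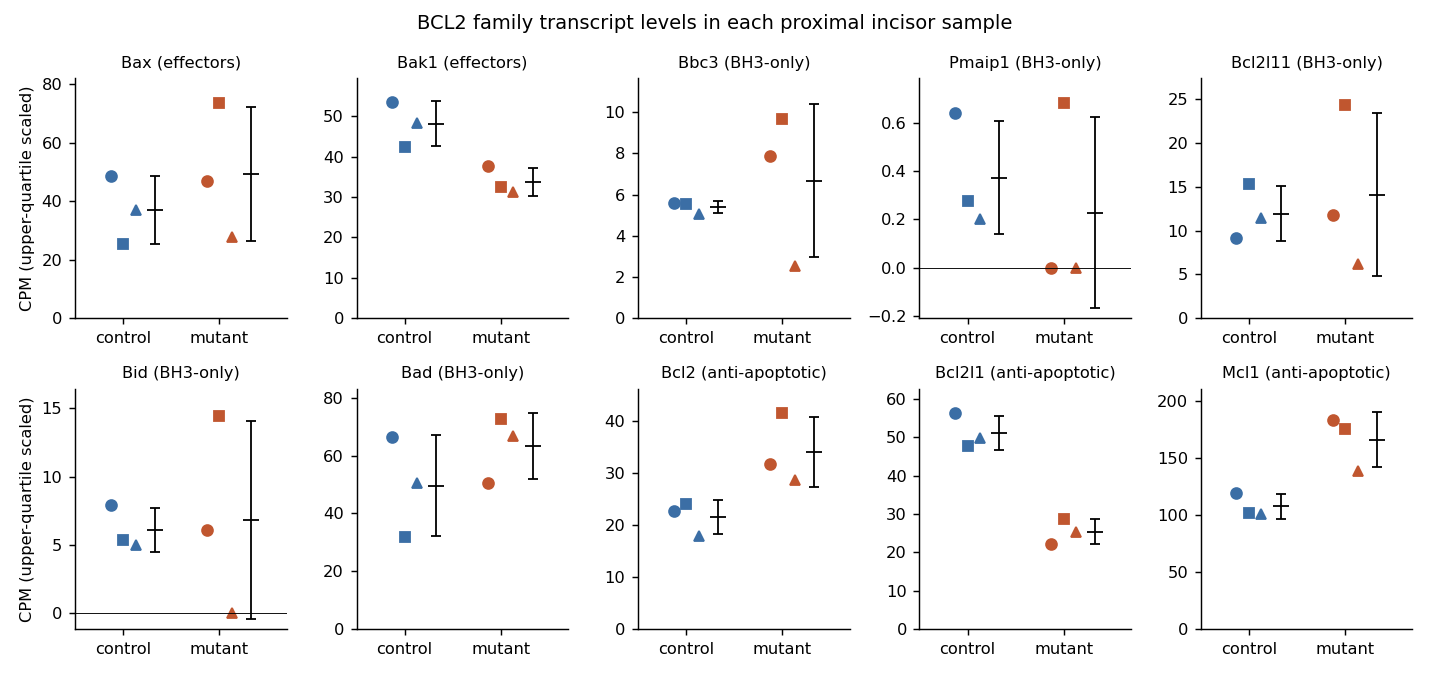
Level of each BCL2 family gene in CPM (vertical axes, each with its own scale) in the 3 control samples (blue) and the 3 mutant samples (orange). Circles, squares and triangles are replicates 1, 2 and 3, and the black bars are the mean and SD of each group. The groups are apart for Bak1, Bcl2, Bcl2l1 and Mcl1, and the BH3-only genes Bbc3, Bcl2l11 and Bid spread widely among the mutant samples.

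Bax and Bak1 encode the 2 effectors that form the mitochondrial pore. Bax (GRCm38 chr7:45461697-45466898, minus strand) had 48.7, 25.3 and 36.8 CPM in controls 1, 2 and 3 and 46.7, 73.4 and 27.7 CPM in mutants 1, 2 and 3. Its highest value was in mutant 2, the other mutant samples lay within the control range, and the groups overlapped. Its log2 fold change was 0.42 (standard error 0.41), at an unadjusted p of 0.335 and adjusted p = 0.656 (edgeR). Bak1 (chr17:27019810-27029009, minus strand) had 53.7, 42.4 and 48.5 CPM in the controls, against 37.8, 32.5 and 31.2 CPM in the mutants. All 3 mutant samples were below all 3 control samples, and the mutant values lay close together. The log2 fold change of Bak1 was -0.51 (standard error 0.25), at an unadjusted p of 0.0714 and adjusted p = 0.301 (edgeR), so it fell short of both thresholds. The count of Bax relative to that of Bak1 within a sample was 0.907, 0.597 and 0.760 in the controls, against 1.24, 2.26 and 0.887 in the mutants. These ranges overlapped only through mutant 3 and control 1. The difference of 0.86 on the log2 scale had p = 0.2 (exact permutation test, two-sided, in which 3 samples against 3 cannot go below 0.1). This ratio was formed after the values of both genes were seen, so its p adds no support. With the correction for the length and GC content of transcripts, the log2 fold changes lay closer together, at -0.13 for Bax and -0.28 for Bak1.

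Bbc3, which encodes PUMA, a BH3-only protein induced by p53, had 5.59, 5.55 and 5.06 CPM in the controls, against 7.86, 9.65 and 2.52 CPM in the mutants (chr7:16308393-16318205, plus strand). The control samples were nearly equal, and the mutant samples lay on both sides of them. Bcl2l11, which encodes BIM and is induced when growth factors are withdrawn, had 9.09, 15.3 and 11.4 CPM in the controls, against 11.8, 24.3 and 6.15 CPM in the mutants (chr2:128126038-128162547, plus strand). Here too mutant 2 was above and mutant 3 below every control sample. The log2 fold changes of 0.30 for Bbc3 (standard error 0.77) and 0.24 for Bcl2l11 (standard error 0.60) were smaller than their errors, with adjusted p of 0.886 and 0.884 (edgeR).

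Bid encodes the protein that caspase-8 cleaves to carry the signal of death receptors to the mitochondrion (chr6:120891930-120916853, minus strand). It had 7.95, 5.39 and 4.999 CPM in the controls, 6.11 and 14.4 CPM in mutants 1 and 2, and 0 counts in mutant 3. Mutant sample 3 was thus below, and mutant 2 above, all control samples. The log2 fold change of 0.17 had a standard error of 1.37 and an adjusted p of 0.969 (edgeR), and without mutant replicate 3 or mutant replicate 2 it was 0.74 or -1.04, with an adjusted p of 0.539 or more. Bid overlaps Bcl2l13 on the opposite strand over 913 bases, and whether the counting used the strand is not given in the sources used here, so the split of reads between both genes is uncertain. The same holds for Bad and Gpr137, which share 620 bases on opposite strands, for Bak1 and Ggnbp1 (9200 bases, opposite strands) and for Bax and Gm45808 (915 bases, same strand).

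Bad encodes a BH3-only protein that survival kinases hold inactive by phosphorylation, which RNA does not show (chr19:6941861-6951899, plus strand). It had 66.5, 31.7 and 50.7 CPM in the controls, against 50.4, 72.5 and 66.8 CPM in the mutants, so the mutant values lay in the upper part of the control range or above it. Its log2 fold change was 0.35 (standard error 0.32, adjusted p = 0.623, edgeR). Pmaip1, which encodes NOXA, the BH3-only partner of MCL1, had 22, 10 and 7 counts in the controls, against 0, 8 and 0 counts in the mutants, and it did not pass edgeR's filter on low counts. Its control levels were 0.641, 0.275 and 0.202 CPM and its level in mutant 2 was 0.683 CPM, above all controls, while 0 counts allow up to 0.655 and 0.302 CPM in mutants 1 and 3, so the groups were not separated at this depth. It could be tested in 4 alternatives and lay past the threshold of the study, on the lower side, only without mutant replicate 2.

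The mutant samples shared an order across most members. Mutant sample 2 was the highest of the 3 mutant samples for 7 of the 9 members tested, against 32.9% of all genes tested, and mutant 3 was the lowest for 7 of 9, against 26.1%. Bbc3 and Bcl2l11 differed 3.83-fold and 3.96-fold between the highest and the lowest mutant sample and Bax 2.65-fold, whereas Bak1, Bcl2l1, Mcl1, Bad and Bcl2 differed 1.21-fold to 1.45-fold. Over all genes tested the median coefficient of variation among the mutants was 46.4%, close to the 46.6% of Bax, and that of the 9 members was 19.8%. These values are given as a description, since the members are counted in the same 3 libraries.

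The 3 anti-apoptotic genes differ in how their proteins are controlled, and their promoters are shown because all 3 had groups that were apart, in different directions. Each line gives the 250 bases before the start of the gene in RefSeq (GRCm38.p6), 5′ to 3′ on the strand of the gene. Bcl2 is at chr1:106714291-106714540 (minus strand), Bcl2l1 at chr2:152831729-152831978 (minus strand, the most upstream of the 3 starts listed) and Mcl1 at chr3:95658471-95658720 (plus strand). Capitals mark matches, on either strand, to CCGGAA (other strand TTCCGG), the core bound by ETS factors, and to TGACG (other strand CGTCA), the half-site bound by CREB and ATF factors.
Bcl2: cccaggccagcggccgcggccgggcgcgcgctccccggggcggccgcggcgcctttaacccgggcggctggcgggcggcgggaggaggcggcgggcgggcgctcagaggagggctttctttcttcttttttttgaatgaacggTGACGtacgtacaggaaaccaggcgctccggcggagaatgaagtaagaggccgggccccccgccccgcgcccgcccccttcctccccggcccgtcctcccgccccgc
Bcl2l1: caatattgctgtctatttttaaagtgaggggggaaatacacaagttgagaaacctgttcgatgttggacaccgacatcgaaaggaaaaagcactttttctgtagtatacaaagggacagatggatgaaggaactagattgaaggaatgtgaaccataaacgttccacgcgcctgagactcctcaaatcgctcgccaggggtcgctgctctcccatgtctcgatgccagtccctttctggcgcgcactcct
Mcl1: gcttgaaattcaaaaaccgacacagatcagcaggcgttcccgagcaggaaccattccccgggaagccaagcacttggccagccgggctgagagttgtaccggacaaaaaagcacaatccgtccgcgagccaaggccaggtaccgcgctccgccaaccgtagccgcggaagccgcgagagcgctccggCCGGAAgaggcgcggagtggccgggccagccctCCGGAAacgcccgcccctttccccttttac
The Mcl1 window held 2 ETS cores, from -63 to -58 and from -30 to -25 relative to the start, and 12.0% of the 32851 windows of this length in RefSeq held at least 1. The Bcl2 window held 1 half-site, from -107 to -103, as did 17.8% of all windows. The Bcl2l1 window held neither set of letters, and it was less GC-rich, at 47.6% against 74.8% for Bcl2 and 64.4% for Mcl1. Among members whose groups overlapped, 1 window each of Bcl2l11, Bid and Bad held 1 ETS core and 1 of Bbc3 held 1 half-site, so the matches were not limited to the genes shown. A match describes the sequence and is not evidence of binding.

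Bcl2l1 (ENSMUSG00000007659.18, chr2:152780668-152831728, minus strand) encodes BCL-XL, a long-lived protein of the outer mitochondrial membrane, and a shorter pro-apoptotic splice form, BCL-XS, which a count per gene does not separate. It had 56.2, 47.6 and 49.7 CPM in the controls, against 22.0, 28.7 and 25.3 CPM in the mutants. The highest mutant sample was well below the lowest control sample. Its log2 fold change was -1.01 (standard error 0.26, 95% interval from -1.60 to -0.42), at an unadjusted p of 0.00409 and adjusted p = 0.0553 (edgeR). The adjusted p was on the other side of 0.05 under 4 of the 9 alternatives that kept all 6 samples (from 0.0105 with DESeq2 to 0.132) and under none of the 6 that left out a replicate (from 0.0584 to 0.262). In all 15 alternatives its log2 fold change was between -1.27 and -0.77 and the gene lay past the threshold of the study. The dental epithelium and endothelial marker sums, which were lower in the mutants as well, moved with this result, and their part in it was not tested.

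Mcl1 (ENSMUSG00000038612.16, chr3:95658788-95663176, plus strand) encodes a short-lived protein that binds NOXA, BIM and BAK. It had 119.8, 102 and 101 CPM in the controls, against 184, 176 and 138 CPM in the mutants. Every mutant sample was above every control sample. Its log2 fold change was 0.63 (standard error 0.22, 95% interval from 0.11 to 1.14), at an unadjusted p of 0.0228 and adjusted p = 0.159 (edgeR). It no longer lay past the threshold of the study with TMM or total counts in place of the upper quartile, where the log2 fold change was 0.53 and 0.37, or without control replicate 3, mutant replicate 1 or mutant replicate 2, where it was between 0.53 and 0.58.

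Bcl2 (ENSMUSG00000057329.7, chr1:106538178-106714274, minus strand), the founding member, had 22.6, 24.0 and 17.9 CPM in the controls, against 31.6, 41.5 and 28.6 CPM in the mutants. The groups were apart, with the lowest mutant sample above the highest control sample. The log2 fold change of Bcl2 was 0.66 (standard error 0.31), at an unadjusted p of 0.0659 and adjusted p = 0.288 (edgeR).

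**Figure D2:**
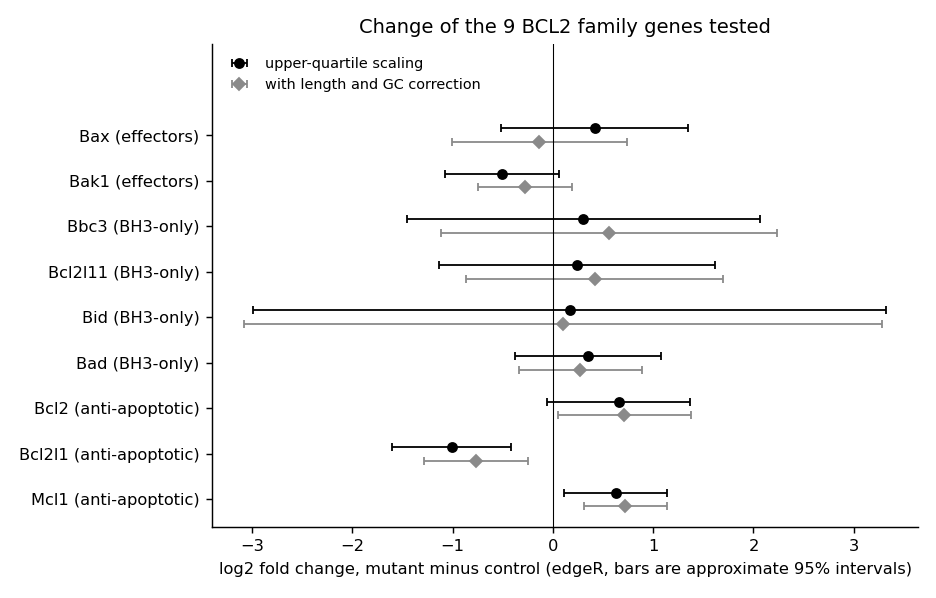
Log2 fold change of the 9 members tested (horizontal axis, mutant minus control) with approximate 95% intervals from edgeR's quasi-likelihood fit. Black circles use upper-quartile scaling alone, and grey diamonds add a correction for the length and GC content of transcripts. Only the intervals of Bcl2l1 and Mcl1 exclude 0 without the correction, and that of Bcl2 does so with it, while Bax moves from 0.42 to -0.13.

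A ratio of counts taken within a sample does not depend on the scaling between samples. The count of Bcl2l1 relative to that of Mcl1 was 0.469, 0.465 and 0.494 in the controls, against 0.120, 0.163 and 0.183 in the mutants. The control samples were within a few percent of each other, and no mutant sample came near them. The difference was -1.64 on the log2 scale (exact permutation test, two-sided, p = 0.1, the smallest that 3 samples against 3 allow). The pair was formed after Bcl2l1 was seen below, and Mcl1 above, all control samples. This p was therefore fixed in advance and adds no support. The count of Bcl2l1 relative to that of Bcl2 was 2.49, 1.98 and 2.77 in the controls, against 0.697, 0.691 and 0.884 in the mutants. The difference was -1.67, with the same p of 0.1 (exact permutation test), which was fixed in the same way. The ratio of Bcl2l1 to Bcl2 counts was above 1 in each control sample and below 1 in each mutant sample, while per kilobase Bcl2l1 was the higher of both genes in all 6 samples. The count of Mcl1 relative to that of Bcl2 was 5.31, 4.25 and 5.61 in the controls, against 5.81, 4.24 and 4.84 in the mutants, which overlapped and differed by -0.029 on the log2 scale (exact permutation test, p = 0.9). After correcting for the length and GC content of transcripts, the differences were -1.50, -1.49 and 0.0030, with the groups apart in the same pairs.

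Per kilobase of transcript, which allows levels to be compared between genes, Mcl1 made up 58.3, 57.8 and 57.4% of the summed anti-apoptotic level in the controls, against 80.6, 75.2 and 74.5% in the mutants. The share of Bcl2l1 was 36.4, 35.8 and 37.7% in the controls, against 12.8, 16.3 and 18.1% in the mutants. Bcl2 remained the smallest part of these 3, at 4.86 to 6.46% and 6.59 to 8.44%. Bcl2l2, another anti-apoptotic relative, is not in the sum. Its mean was 6.51 CPM per kilobase in the controls and 7.67 in the mutants, above the 2.99 and 4.72 of Bcl2. The sum over the 3 members was 60.1, 51.8 and 51.3 CPM per kilobase in the controls, against 66.8, 68.4 and 54.3 in the mutants, which overlapped. The make-up of the transcripts of these 3 members thus differed more clearly between the groups than their total. This follows from the opposite directions of Bcl2l1 and Mcl1 already seen in the same values, and it adds no support to them.

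**Figure D3:**
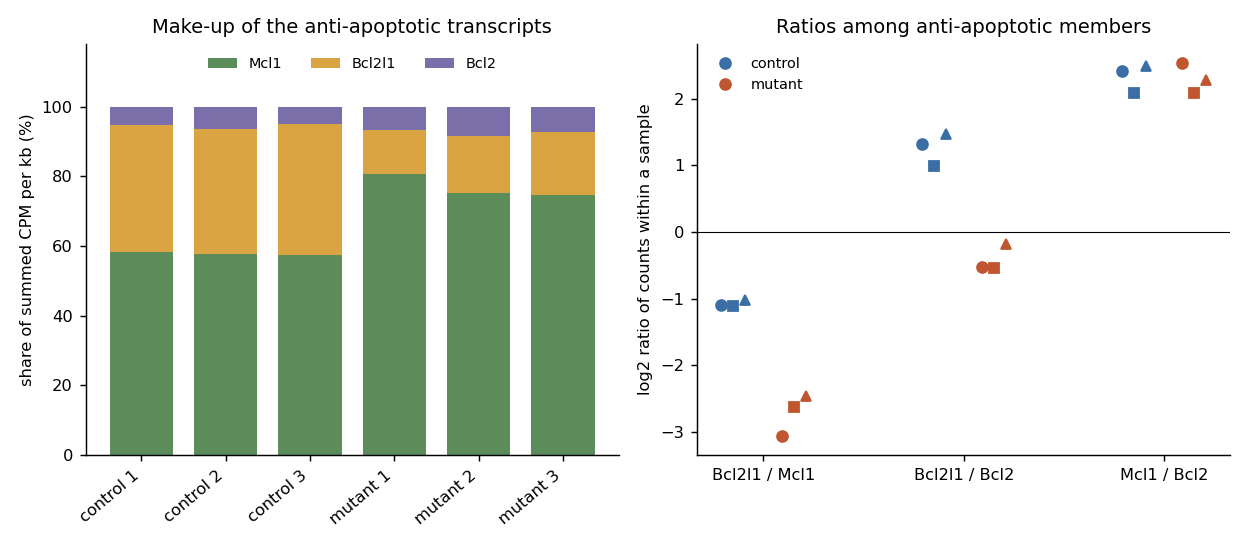
Left, share of Mcl1, Bcl2l1 and Bcl2 in the summed level of these 3 genes per kilobase (vertical axis, percent) in each of the 6 samples. Right, log2 ratio of counts within each sample for the 3 pairs of anti-apoptotic genes, with control samples in blue, mutant samples in orange and circles, squares and triangles for replicates 1, 2 and 3. Both ratios that hold Bcl2l1 are lower in every mutant sample, and the ratio of Mcl1 to Bcl2 is not separated.

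The order of the members was also compared per kilobase. In the control samples Bax (mean 42.6 CPM per kilobase), Bad (32.4) and Mcl1 (31.5) were the highest and were not separated from one another, Bak1 (20.2) and Bcl2l1 (19.9) followed, apart from Mcl1 but not from each other, and Bcl2, Bbc3, Bid and Bcl2l11 lay between 2.37 and 2.99 without separation. In the mutant samples Bax (56.8), Mcl1 (48.6) and Bad (41.3) led, and Bak1 (14.2) and Bcl2l1 (9.87) were now apart from each other. Pmaip1 was the lowest in both groups, at 0.137 and 0.0835 CPM per kilobase. The sum over the 7 pro-apoptotic members relative to that over the 3 anti-apoptotic members was 2.18, 1.47 and 2.01 in the controls, against 1.68, 2.38 and 1.68 in the mutants. The means of these ratios were 1.89 ± 0.37 and 1.91 ± 0.40 (SD, n = 3), and the groups overlapped, with mutant 2 above all controls and control 2 below all mutants. This comparison rests on the longest annotated transcript of each gene, and the transcripts actually used in these cells were not resolved.

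The contrast of pro-apoptotic with anti-apoptotic members was also taken as the mean of log2(CPM + 1) over the former minus that over the latter. It was -1.85, -2.08 and -1.86 in the controls, against -1.95, -1.60 and -2.63 in the mutants. Mutant sample 2 was above and mutant 3 below all control samples, and the groups overlapped. The mean difference of -0.13 was smaller than the SD of 0.53 among the mutant samples. The difference was -0.41 with 0.1 CPM and -0.047 with 5 CPM added in place of 1, and -0.30 with the correction for length and GC content. With the median over members in place of the mean, the difference was 0.65 and so had the opposite sign. The 3 anti-apoptotic genes differed in direction, and their mean differed by 0.084 between the groups.

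Taken pair by pair, 18 ratios of a pro-apoptotic to an anti-apoptotic gene could be formed without Pmaip1, after 0.5 was added to each count. Bax, Bak1 and Bad were each higher relative to Bcl2l1 in all 3 mutant samples than in any control sample, with mean log2 differences of 1.37, 0.51 and 1.41. The ratio of Bak1 to Bcl2 and that of Bak1 to Mcl1 were lower in all 3 mutant samples, with log2 differences of -1.16 and -1.13. In the other 13 pairs the groups overlapped. No share over pairs of all genes was taken, and for single genes the groups were apart for 30.4% of those tested. The 3 higher ratios share Bcl2l1, which was itself lower in the mutants, whereas Bax and Bad alone overlapped and Bak1 was lower. The 2 lower ratios share Bak1. Relative to Bcl2l1, Bbc3 and Bcl2l11 were higher in mutants 1 and 2 (-1.48 and -1.57 for Bbc3 against -3.33 to -3.10 in the controls, log2) but within the control range in mutant 3. The direction of the contrast thus depended on which anti-apoptotic gene was the reference. With the correction for length and GC content, 2 ratios were higher (Bak1 and Bad over Bcl2l1), 4 were lower (Bax and Bak1 over Bcl2 and over Mcl1) and 12 overlapped.

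**Figure D4:**
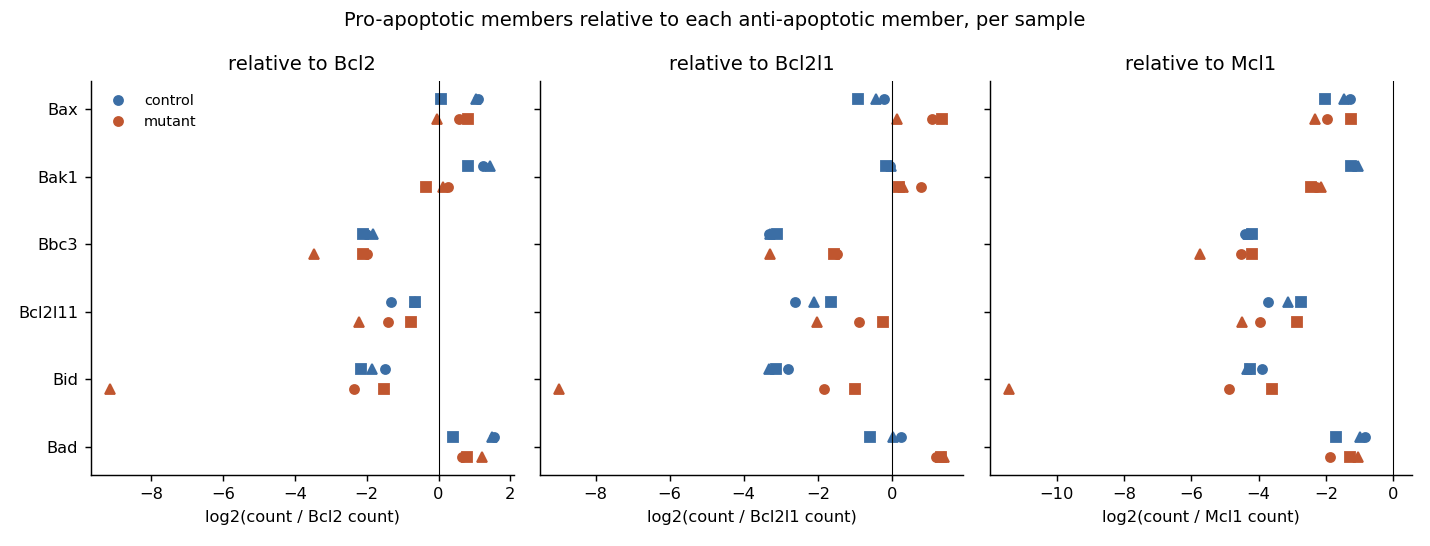
Log2 ratio of the count of each of 6 pro-apoptotic genes to that of Bcl2 (left), Bcl2l1 (middle) or Mcl1 (right) within each sample, with 0.5 added to each count. Control samples are blue, mutant samples orange, and circles, squares and triangles are replicates 1, 2 and 3. Bax, Bak1 and Bad lie to the right of all control samples relative to Bcl2l1, Bak1 lies to the left relative to Bcl2 and Mcl1, and the value of Bid in mutant 3 rests on 0 counts.

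Transcript length moved with the fold changes across the table, and members differ in length. Protein-coding genes with transcripts under 1000 bases had a median log2 fold change of 0.93 (n = 707), and those from 3000 to 5000 bases one of -0.26 (n = 4428). Bax, at 867 bases the shortest member, had 0.42, below the median of its length class. Bcl2l1, at 2568 bases, was at -1.01 in a class with a median of -0.12, in which 10.03% of genes were past the threshold of the study in the same direction. Mcl1 (3418 bases) and Bcl2 (7191 bases) were higher in the mutants although the medians of their classes were -0.26 and -0.25. In these classes, 4.43% and 3.22% of genes lay past the threshold on the higher side. After the correction the log2 fold change was -0.77 for Bcl2l1 (adjusted p = 0.125), 0.72 for Mcl1 (adjusted p = 0.0759) and 0.71 for Bcl2 (adjusted p = 0.286, unadjusted p = 0.0406, edgeR). Bak1 was at -0.28 and Bax at -0.13. The 3 anti-apoptotic genes then lay past the threshold of the study. Over the 15724 genes of that fit, 8.39% lay past it on the lower side and 5.98% on the higher side.

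**Figure D5:**
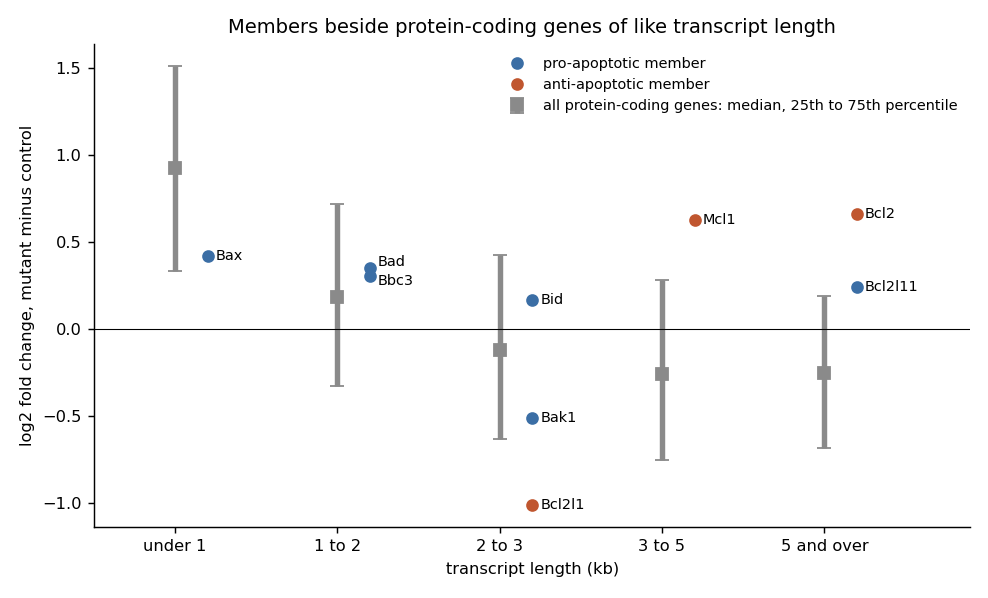
Log2 fold change (vertical axis, mutant minus control) by transcript length class (horizontal axis, kilobases). Grey squares and bars are the median and the 25th to 75th percentile of all protein-coding genes in a class, blue points are pro-apoptotic and orange points anti-apoptotic members. Bcl2l1 lies below, and Mcl1, Bcl2 and the pro-apoptotic Bcl2l11 lie above, the bar of their class.

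The rest of the pathway was described with lists of genes. Of the other BCL2 relatives, 5 of 12 could be tested, with a median log2 fold change of -0.72, against -0.040 over all genes. Bcl2l13, a mitochondrial relative that overlaps Bid, was the only one past the threshold of the study, with 58.5, 62.1 and 72.3 CPM in the controls, against 55.4, 28.5 and 33.4 CPM in the mutants (log2 fold change -0.72, adjusted p = 0.231, edgeR). With the correction for length and GC content it was at -0.45 (adjusted p = 0.656, edgeR), and it fell short of the threshold without each replicate in turn other than mutant replicate 1. Bmf, a further BH3-only gene, fell short of the threshold, but all its mutant samples were below all control samples. It had 51.8, 58.8 and 24.8 CPM in the controls, against 1.53, 21.8 and 21.1 CPM in the mutants (log2 fold change -1.59, adjusted p = 0.306, edgeR). Bcl2a1a, Bcl2a1b and Bcl2a1d are near-identical copies whose counts are uncertain. Of 16 genes of the mitochondrial step and the caspases, 1 was past the threshold, and the median was 0.080. This was Cycs, which encodes cytochrome c, with 74.4, 59.0 and 88.7 CPM in the controls, against 119, 96.1 and 240.2 CPM in the mutants (log2 fold change 1.04, adjusted p = 0.157, edgeR). All mutant samples were above all control samples for Cycs, but with the correction for length and GC content its log2 fold change was 0.50 (adjusted p = 0.581, edgeR). Of 5 inhibitors of apoptosis, none was past it, with a median of 0.027. The smallest p belonged to Birc6, an inhibitor with ubiquitin ligase activity, at a log2 fold change of -0.70 (adjusted p = 0.293, edgeR).

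Among 9 death receptor genes, Tnfrsf1a, the main receptor for TNF, fell, with an adjusted p just under 0.05. It had 97.9, 93.7 and 90.7 CPM in the controls, against 49.8, 51.3 and 50.6 CPM in the mutants, with hardly any spread within a group (log2 fold change -0.90, standard error 0.20, adjusted p = 0.0464, edgeR). Its adjusted p was under 0.05 in 4 of the 9 alternatives with all 6 samples, at most 0.0823, and in none without a replicate, at most 0.190. Cflar, which encodes the caspase-8 inhibitor FLIP, was past the threshold of the study on the higher side (log2 fold change 0.69, adjusted p = 0.240), although its groups overlapped and it passed in none of the 9 alternatives with all 6 samples, and the median over the list was -0.16. Among 14 genes of p53 and its targets the median was 0.24, 10 were higher and 2 were past the threshold, both lower. Cdkn1a, which encodes the cell cycle inhibitor p21, had 271, 246 and 376 CPM in the controls, against 96.9, 125 and 167 CPM in the mutants (log2 fold change -1.20, adjusted p = 0.0502, edgeR). Its adjusted p was under 0.05 in 5 of the 9 alternatives with all 6 samples, from 0.00146 with DESeq2 to 0.0978, and in none without a replicate, at most 0.245. Pidd1, which encodes a scaffold for caspase-2, fell from 1.22, 1.51 and 1.53 CPM to 0 counts in each mutant sample (adjusted p = 0.0464, edgeR). With 3 counts allowed over the mutant group it was at least 12.4-fold lower, but this bound covers counting error only. Higher genes were also at 0 in a mutant sample. Ripk1 had 0 counts in mutant 1, against 31.2 CPM in mutant 2 and 20.1 to 29.8 CPM in the controls. The size of the difference in Pidd1 is therefore uncertain. The adjusted p of Pidd1 was under 0.05 in 3 of 8 alternatives with all 6 samples, at most 0.308, and in none without a replicate, at most 0.190. Of 7 other factors that switch on BH3-only genes, all 7 had a negative log2 fold change and none was past the threshold. Their median was -0.62, against -0.040 over all genes. The smallest p was that of Foxo3, which activates Bcl2l11, with a log2 fold change of -0.89 (adjusted p = 0.302, edgeR) and overlapping groups. With the correction for length and GC content Foxo3 was at -0.48 (adjusted p = 0.583, edgeR).

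Of 15 partners and turnover enzymes of the family, 3 were past the threshold and the median was 0.21. Ywhaq, a 14-3-3 protein of the kind that binds phosphorylated BAD, had 274, 156 and 198 CPM in the controls, against 483, 402 and 494 CPM in the mutants (log2 fold change 1.13, adjusted p = 0.0525, edgeR), and its adjusted p was under 0.05 in 2 of the 9 alternatives with all 6 samples. Dynll1, the dynein light chain that tethers BIM, had a log2 fold change of 0.97 (adjusted p = 0.174), with the mutant samples above the control samples. Bag6, a chaperone that binds misfolded membrane proteins, was lower (log2 fold change -0.68, adjusted p = 0.185), at -0.078 with the correction for length and GC content. Over the 7 lists outside the members, 4 genes were past the threshold on the higher side and 5 on the lower side, of 71 tested, against 19.8% of all genes.

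The genes most like Bax and Bcl2 across the 6 samples were found by the root mean square difference of centred log2(CPM + 1) among the 9319 protein-coding genes whose mean was 10 CPM or more. For Bax these were Unc119 (0.0829), Arl2 (0.0894) and Eci2 (0.0961). Each had its highest value in mutant 2 and low values in control 2 and mutant 3, as Arl2 did with 64.8, 21.4 and 20.8 CPM. For Bcl2 they were Zfyve16 (0.0898), Rras2 (0.0964) and Fam126a (0.113), each highest in mutant 2 and lowest in control 3. These are descriptions over 6 samples, made on the same libraries as the fold changes.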

How the data were processed

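RNA of 3 control and 3 mutant proximal incisors was sequenced as single reads. The authors used Partek Flow to trim the reads and align them to mm10 (GRCm38), and the submitters' processing notes list TopHat2 2.0.8. They deposited estimated counts per gene, filtered on low features and not normalized. The counting model, its annotation and its use of strand are not given in the sources used here. The authors also deposited their own comparison (p-values, false discovery rates, ratios, fold changes and group means), which was not used.

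The estimated counts were rounded to whole numbers and fitted over all genes with edgeR 4.0.16 (R 4.3.3): scaling by the upper quartile, its default filter (at least 10 counts and 15 in total), a model of genotype alone, and its quasi-likelihood test, two-sided, adjusted by Benjamini-Hochberg over 15826 genes. Standard errors and intervals are approximate and were derived from the F statistic. The test was tried on simulated counts. The length and GC correction was tried on simulated counts with a length trend only, so its GC part was not tested. Alternatives were other scalings, DESeq2 1.42.0, other filters, thinned control counts, a replicate block, offsets from splines of transcript length and GC content (fitted on protein-coding genes averaging 50 counts or more), and each replicate left out. Gene models were GENCODE M21 (GRCm38), using the longest basic transcript, in which 18637 symbols matched directly, 214 by synonym and 209 not at all. Promoters were RefSeq (GRCm38.p6).

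The members and lists were chosen with earlier results of these data known. Ratios among the anti-apoptotic members, the ratio of Bax to Bak1, and shares and sums per kilobase were added after values were seen. So were the order among the mutant samples and the promoter motifs. Genes named are all members, and from each other list up to 2 higher and 2 lower with the smallest p past the threshold of the study, or otherwise the gene with the smallest p. The 3 genes most like Bax and Bcl2 and Fgfr1 were also named, and Bmf, Bcl2l2 and Ripk1 were named after values were seen.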

Additional observations from a re-analysis of the deposited data

How the results depend on the processing

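Of 135 fold changes of members under the alternatives, 119 kept their direction and their side of the threshold of the study, 5 no longer passed it, 4 newly passed it and 7 changed sign. The changes of sign were Bid at -0.028 with total counts, Bax at -0.13 with the length and GC correction, Bid at -1.03 with the replicate block, and, without mutant replicate 2, Bax at -0.0049, Bbc3 at -0.080, Bcl2l11 at -0.43 and Bid at -1.04. Over the replicates left out in turn, the highest values of these genes were 0.69, 0.69, 0.59 and 0.74, each without mutant replicate 3. The cause was not tested. The number of members with an adjusted p under 0.05 was 0, but 1 (Bcl2l1) with TMM, with DESeq2's size factors in edgeR, with total counts and with DESeq2. It was 0 each time a replicate was left out, where fewer samples were fitted. The number past the threshold of the study was 2, and ran from 1 (without control replicate 3) to 2 when replicates were left out. The newly passing genes were Bak1 with TMM (-0.61), with total counts (-0.77) and without mutant replicate 1 (-0.61), and Bcl2 with the length and GC correction (0.71). Pmaip1 could be tested in 4 alternatives and passed, on the lower side, only without mutant replicate 2. The pro-apoptotic minus anti-apoptotic level was -0.13, 0.65 with medians over members, and between -0.36 and 0.16 when a replicate was left out. The median log2 fold change of all genes was -0.040, -0.13 with TMM, -0.30 with total counts and -0.27 with the block.

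In the labels, samples with the same replicate number share only that number. The paper speaks of 3 pairs of samples but does not say how they were paired. Deviations of same-numbered samples from their group means correlated at 0.0742, 0.0228 and 0.0883, which cannot show whether they were paired. With the replicate block, 2 members (Bcl2l1 and Mcl1) lay past the threshold of the study and 0 had an adjusted p under 0.05, and the calls over all genes went from 1074 to 508. No call of a member changed. Pidd1 fell short of both thresholds with the block (adjusted p = 0.308), and Cdkn1a had an adjusted p of 0.0432. Alternatives were also run for Fgfr1 and the genes that the rule above named from the other lists, a choice made after seeing the data. Of their 179 fold changes, 137 kept their direction and side and 34 no longer passed the threshold of the study. Another 8 newly passed it and 0 changed sign.

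The mutant libraries held fewer counts, so levels near the count floor, such as those of Pmaip1, were measured with little precision there. The mutant libraries also differed among themselves, and Bbc3, Bcl2l11 and Bid had the widest errors.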
